A study of Mus musculus with 123 samples.

Results

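The basic leucine zipper transcription factors Atf3, Jun, Jund, Fosl2, Atf2, Creb1, Crem and Maff were followed in mouse dorsal root ganglion (DRG) neurons after sciatic nerve transection (SNT). They were taken by symbol, and all 8 are among the 24134 genes of the deposited tables. Each was compared between the side with the cut nerve and the contralateral, uncut side, in pooled neurons at day 3 and in single neurons at days 3 and 7. Levels are in CPM, a gene's count divided by all counts assigned to genes in its library and brought to a common total.

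Factors of this family bind DNA as dimers, and the partner decides which sites a dimer prefers. Jun and Fos proteins form AP-1, which reads a short palindrome; ATF and CREB proteins read the cyclic AMP response element (CRE), and some Jun and ATF proteins pair with each other. In DRG neurons, Atf3 and Jun are long established as genes that switch on in the soma when its peripheral axon is cut, and Atf3 is used as a mark of axotomized neurons.

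The samples came from 2-month-old mice with the right sciatic nerve cut at mid thigh, and all neurons were dissociated with enzyme and picked by hand before Smart-seq2 amplification. The day-3 mice were female F1 offspring of a CAST/Eij male and a C57BL/6 female and gave L5 DRG neurons, read as 50-base single ends: 41 SNT-side and 18 control-side cells were kept, and 1 pool of neurons per side was lysed and split into 3 libraries. The day-7 mice were C57BL/6 of both sexes and gave L3-L5 DRG neurons, read as 75-base paired ends: 33 SNT-side cells, 16 from females and 17 from males, and 14 control-side cells, 7 from each sex. No sex is given for the single day-3 samples, and the paper names the F1 mice as female. The protocol label of the C57BL/6 cells names days 3 and 7, and cells were placed by title. The paper gives L3-L5 ganglia for both days and elsewhere calls its cells L5. As described above, strain, ganglia, sequencer and day changed together, so they cannot be told apart and the days are set side by side only.

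No label names the animal behind a cell, so each side of the cells is 1 sample and no test was made on them. A p-value on the pooled libraries measures the spread between parts of 1 pool, not between animals. The pooled columns were taken by their names. A second line of identifiers in the same table gives these 6 columns the opposite side, and under that reading the sign of every pooled difference would turn round. The source label of all 6 reads intact. The paper reports known regeneration-associated genes as up-regulated in its pooled samples after SNT. The cell columns carry no such conflict, and mean Atf3 over the day-3 cells was 1480 CPM for the SNT side and 17.7 CPM for the other, against 1470 and 13.4 CPM in the pools read by column name. Atf3 is itself a member, so this match is no separate support for the direction of its pooled difference. Total counts per library were 1148849 to 2003817 on the SNT side against 563462 to 839135 on the control side of the pools, and 261351 to 1849130 over the kept cells.

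The 250 bases before the annotated start were read for Atf3 and Jun, the members with the most reads on the SNT side, from the RefSeq promoter table of build GRCm38.p6, which differs from the mm9 build named for the reads. The Atf3 window is chr1:191183334-191183583 on the minus strand and the Jun window chr4:95052223-95052472 on the minus strand. Capitals mark every match to TNACNTCA, a loosened CRE that also covers TGACGTCA, searched on both strands; this spelling was chosen after these sequences were read.

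Atf3: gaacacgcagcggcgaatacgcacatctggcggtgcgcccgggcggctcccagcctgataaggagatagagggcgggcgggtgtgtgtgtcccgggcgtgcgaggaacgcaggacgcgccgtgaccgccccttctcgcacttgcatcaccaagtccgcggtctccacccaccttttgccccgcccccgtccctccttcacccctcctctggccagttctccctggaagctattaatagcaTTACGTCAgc
Jun: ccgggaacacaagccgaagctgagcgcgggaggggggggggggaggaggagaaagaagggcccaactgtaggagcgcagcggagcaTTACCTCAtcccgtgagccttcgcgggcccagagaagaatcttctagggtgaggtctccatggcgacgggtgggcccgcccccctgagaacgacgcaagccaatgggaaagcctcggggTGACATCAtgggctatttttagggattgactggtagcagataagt

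The Atf3 window held 1 match, TTACGTCA at position -10, and the Jun window held 2, TTACCTCA at position -164 and TGACATCA at position -45, each the position of the first letter counted backwards from the base before the start. Of the 9 windows that the table holds for 7 of the members, 5 held TNACNTCA, and 14% of all 32851 promoter windows of that length did; since the spelling was taken from the Atf3 and Jun windows, their matches were fixed by it and nothing is read from the count. Besides Atf3 and Jun the members with a match were Jund, which was not called in the pools, and Maff, which had few reads. The plain CRE, TGACGTCA, stood in 1 of 3 Maff windows and in no other member, and in 1.55% of all windows. The AP-1 palindrome TGANTCA was in none of the members' windows and in 6.75% of all windows. A match describes letters and no more.

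In the pooled neurons 4 of the 7 members that averaged 1 CPM or more rose on the SNT side and none fell. Atf3, Jun, Fosl2 and Crem rose; Jund, Atf2 and Creb1 did not pass both the adjusted p of 0.05 and a 2-fold change, and Maff was below the level tested. Over all 13509 genes tested, 8.83% were called higher and 15.9% in either direction. The libraries of the 2 sides did not overlap for the same 4 members, with the SNT side higher, as for 16.8% of all genes tested. This count of 4 is a count over genes picked with these results known.

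Atf3, which binds CRE-like sites as a homodimer or with Jun proteins, read 1620, 1370 and 1410 CPM in the 3 SNT-side libraries and 8.25, 21.5 and 10.6 CPM in the 3 control-side libraries. Each SNT-side library was far above every control-side library. The means were 1470 ± 133 and 13.4 ± 7.03 CPM (SD, n = 3 each), a log2 difference of 6.86 with a standard error of 0.21 (edgeR quasi-likelihood test, adjusted p = 1.1e-26). The control-side libraries held only 6, 18 and 6 Atf3 reads, so the size of the denominator is the less certain part of the ratio.

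Crem encodes CREM activators and, from an inner promoter, the repressor ICER. It read 52.6, 51.4 and 38.4 CPM on the SNT side against 15.1, 7.2 and 1.77 CPM on the control side. The SNT-side libraries lay together and the control-side ones spread widely below them. The log2 difference was 2.63 with a standard error of 0.40 (edgeR adjusted p = 1.5e-06). Gene-level counts do not separate activator and repressor transcripts, and an annotated gene on the opposite strand, Gm6225, overlaps Crem; no source says that reads were counted by strand, so those of both cannot be told apart.

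Atf2, a CRE-binding partner of Jun that is controlled largely by phosphorylation, read 64.7, 41.8 and 57.1 CPM on the SNT side against 153, 58.3 and 86.3 CPM on the control side. The sides overlapped, and 1 control-side library stood well above the rest. The log2 difference was -0.70 with a standard error of 0.25 (edgeR adjusted p = 0.037), which is short of 2-fold, and without that control-side library (replicate 1) it was -0.23. Creb1, the founding CRE-binding activator, read 22.1, 26.1 and 24.5 CPM on the SNT side against 22, 22.6 and 7.1 CPM on the control side. Only control-side replicate 3 was low, and the log2 difference of 0.59 with a standard error of 0.38 did not pass (edgeR adjusted p = 0.28).

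Jun, the main transactivating Jun protein, read 334, 357 and 295 CPM on the SNT side against 77.0, 79.8 and 95.8 CPM on the control side. Here both sides were tight and stood apart. The log2 difference was 2.13 with a standard error of 0.17 (edgeR adjusted p = 3.8e-13). Jund, the Jun protein that many resting cells keep, read 19.7, 17.4 and 14 CPM against 15.1, 16.7 and 19.5 CPM, with the sides interleaved and a log2 difference of 0.15 with a standard error of 0.40 (edgeR adjusted p = 0.83). That value was -0.01 with limma and -0.00 when libraries were scaled by their totals, so it has no direction. Antisense genes overlap both, Junos with Jun and Gm11175 with Jund, and their reads cannot be told apart here. The same limit holds for Atf3, which Gm24748 overlaps on the opposite strand, and for Atf2, which Gm27421 overlaps on the same strand.

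Fosl2, a Fos protein that needs a Jun partner to bind DNA, read 12.9, 20 and 16 CPM on the SNT side against 0, 4.77 and 0 CPM on the control side. The control-side reads were 0, 4 and 0, and 3 reads would have been 4.13 and 5.32 CPM in the libraries without any. All SNT-side values were above those limits. The fitted log2 difference was 3.2 with a standard error of 0.71 (edgeR adjusted p = 0.00054), it rests on these 4 control-side reads, and it was 7.35 without the library that held them (control-side replicate 2), a value set mainly by the small count that the fit adds. Maff, a small MAF protein without a transactivation domain, held 6 reads on the SNT side against 2 on the control side in all, with a mean under 1 CPM, and was not tested.

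**Figure D1:**
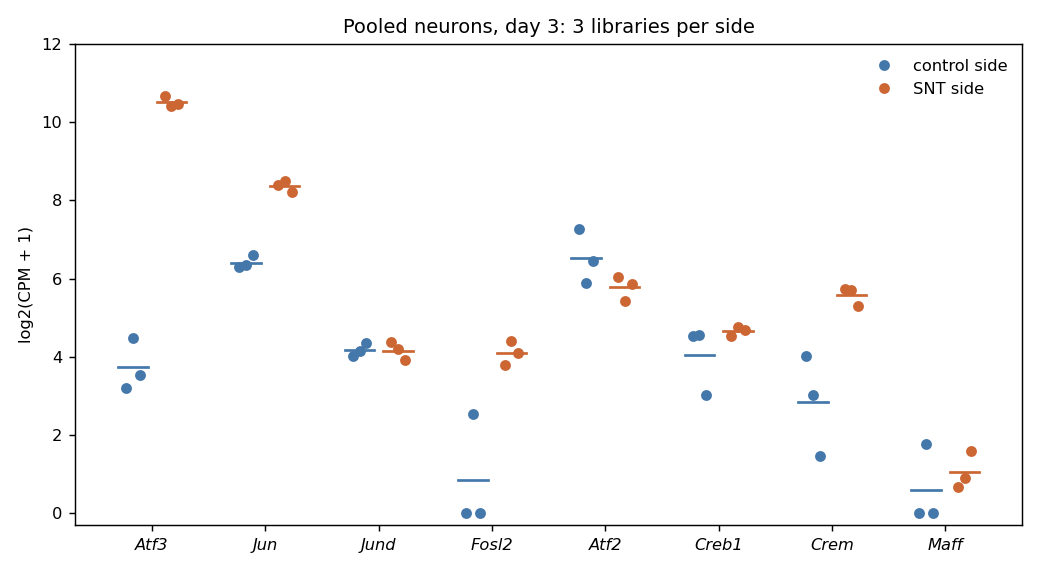
Each point is 1 of 3 libraries from a pool of day-3 neurons, with the level as log2(CPM + 1) on the vertical axis and the 8 genes on the horizontal axis; short lines are means. Atf3, Jun, Fosl2 and Crem show no overlap of the sides, with Atf3 at 1370 CPM and above on the SNT side, while the points of Jund, Atf2 and Creb1 interleave.

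Levels of different genes can be compared only per length of transcript. Per kilobase of the longest coding transcript in GENCODE M21, an annotation of a later build than the reads used, Jun stood at 24.1 to 30 CPM on the control side and Atf3 at 4.16 to 10.8 CPM. On the SNT side Atf3 stood at 691 to 817 CPM per kilobase and Jun at 92.5 to 112 CPM. The order of these levels was thus opposite on the sides, in every library. Crem at 13.1 to 17.9 and Atf2 at 9.93 to 15.4 CPM per kilobase followed on the SNT side with overlapping ranges, Jund was at 8.39 to 11.8, and Creb1 (2.64 to 3.1) and Fosl2 (1.97 to 3.06) were lowest among the tested members.

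Markers of other cells also differed between the pools. The 10 glial markers, all with reads, summed to 12700 to 15400 CPM in the control-side pools and 6310 to 7120 CPM in the SNT-side pools. The 8 immune markers summed to 0 to 5.96 CPM, with 4 of 8 detected (Ptprc, Cd68, Csf1r and C1qa at 0), against 10.4 to 16.7 CPM with 7 of 8 detected (Ptprc at 0). The 6 genes known to respond to dissociation, which include the AP-1 genes Fos, Fosb and Junb, summed to 231 to 245 CPM on the control side and 97.8 to 112 CPM on the SNT side, where Fosb was at 0. The 8 neuronal markers summed to 12000 to 14100 against 20500 to 22700 CPM, and the 4 markers of non-peptidergic (NP) neurons to 2620 to 2720 against 547 to 616 CPM. Peptidergic (PEP) markers summed to 1660 to 2110 against 1000 to 1130 CPM, markers of large myelinated (LM) neurons to 648 to 703 against 898 to 973 CPM, and markers of C-low-threshold mechanoreceptors to 389 to 533 against 65.8 to 121 CPM. Fewer cells of a type and less RNA per cell cannot be told apart in a pool, and the part of these shifts in the members' differences was not tested.

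Among single neurons of day 3, the same 4 members had means more than 2-fold higher on the SNT side, of 7 whose mean reached 1 CPM, and none was 2-fold lower; of all genes at that level, 13.2% were past 2-fold in either direction. By the same measure, the log2 ratio of mean CPM + 1, Atf3 and Crem were past 2-fold at day 7, both higher, against 9.86% of all genes. That count of 2 depends on the settings: Fosl2 had a ratio of means of 2.05 without the added 1 CPM, Fosl2 and Jund were also past 2-fold in cells thinned to 200000 counts, and Jun and Fosl2 in female cells alone. The log2 ratios of single cells are all of this kind. All 8 neuronal markers had reads in each group of cells. The 10 glial markers summed to medians of 3890 and 3860 CPM on the SNT and control sides of day 3. At day 7 these medians were 1630 and 5300 CPM, and the part of glial reads in the ratios was not tested. Median totals were 1323932 and 862619 counts at day 3 and 575179 and 738947 counts at day 7 on the same sides.

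Atf3 ranged from 0.650 to 4440 CPM with a median of 1700 CPM in the 41 SNT-side cells of day 3, and from 0 to 75.7 CPM with a median of 8.75 CPM in the 18 control-side cells. The kept SNT-side cells fell into separate ranges. In 30 cells Atf3 was at 951 to 4440 CPM, all above the highest control-side cell, and in the other 11 it was at 0.650 to 23 CPM, with no kept cell between. The upper range held 73.2% of the cells, with a 95% Clopper-Pearson interval of 57.1% to 85.8% that covers counting error only. The log2 ratio of the sides was 6.30. The 7 SNT-side cells removed as outliers had Atf3 at 12 to 255 CPM. In 4 of them it was above the highest kept control-side cell and within the gap.

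At day 7 the same gap was seen with fewer cells above it. Atf3 ranged from 0 to 1780 CPM with a median of 9.19 CPM over the 33 SNT-side cells, and from 0 to 29 CPM with a median of 3.89 CPM over the 14 control-side cells. In 12 SNT-side cells (36.4%, interval 20.4% to 54.9%) Atf3 was at 704 to 1780 CPM, and in the other 21 it was at most 13.9 CPM. Of these, 13 had no Atf3 read, where 3 reads would have been 3.59 to 11.5 CPM. Because most cells were in the low range, the log2 ratio was 5.76 by means and 1.06 by medians. The upper range held 8 of 16 female cells and 4 of 17 male cells, and the log2 ratio was 7.06 and 4.67; the sexes were not tested against each other, since neither has replicate animals in the labels, and the median total count was 740956 in the female and 511261 in the male SNT-side cells.

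**Figure D2:**
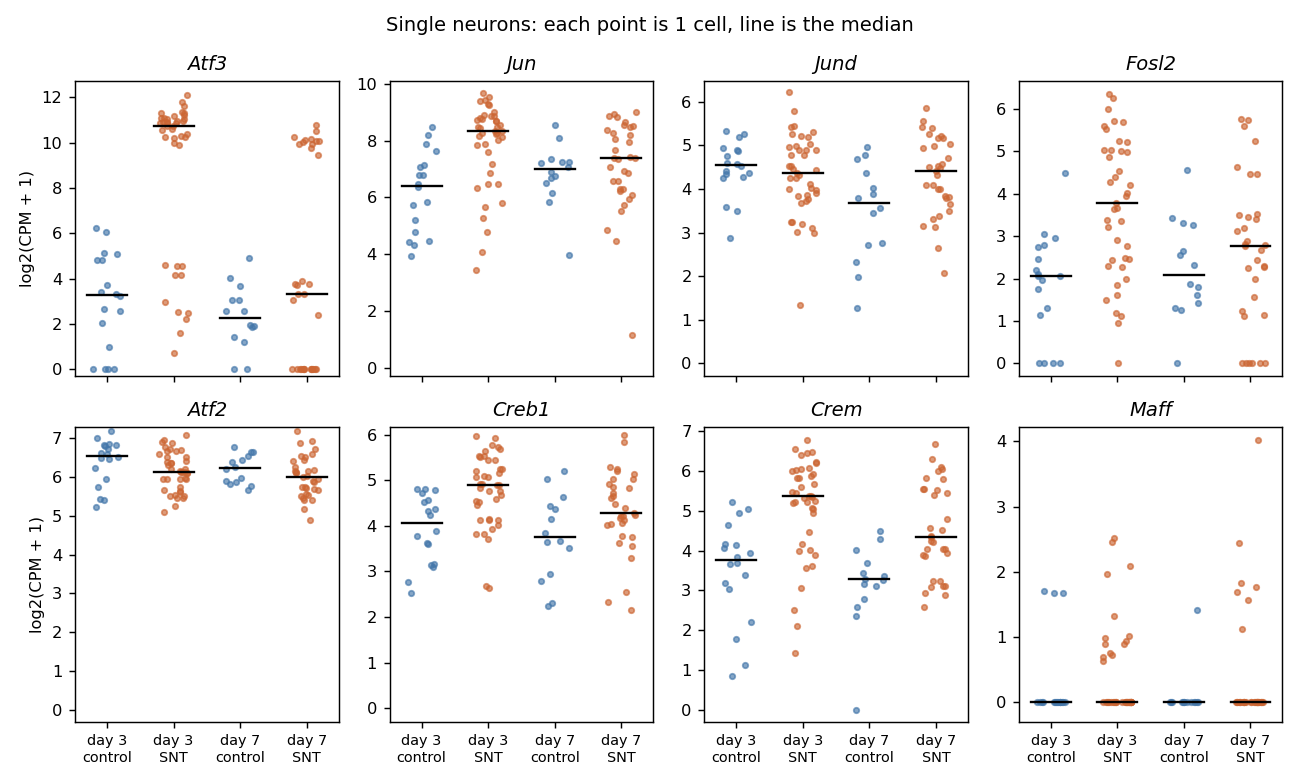
Each point is 1 kept neuron, with the level of the named gene as log2(CPM + 1) on the vertical axis and side and day on the horizontal axis; the line is the median. Atf3 shows a gap on the SNT side, between 23 and 951 CPM at day 3 and between 13.9 and 704 CPM at day 7, whereas the other genes spread without a gap of that size.

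Crem ranged from 1.70 to 109 CPM with a median of 40.2 CPM in the SNT-side cells of day 3 and from 0.789 to 36.1 CPM with a median of 12.6 CPM in the control-side cells. The sides overlapped, and 26 of 41 SNT-side cells stood above all control-side cells. At day 7 it ranged from 4.98 to 101 CPM (median 19.2) on the SNT side, against from 0 to 21.6 CPM (median 8.71) on the control side, with 15 of 33 SNT-side cells above the control range. Both days gave a log2 ratio of 1.56, and at day 7 the female cells gave 1.85 and the male cells 1.17. Of the members, Crem and Atf3 alone were past 2-fold at both days and in each sex.

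Jun ranged from 9.86 to 817 CPM with a median of 321 CPM on the SNT side of day 3, and from 14.2 to 356 CPM with a median of 84.8 CPM on the control side. The low ends met and 16 of 41 SNT-side cells lay above the control range, with a log2 ratio of 1.55. At day 7 Jun ranged from 1.20 to 517 CPM (median 167) against 14.6 to 378 CPM (median 127). Here 5 of 33 SNT-side cells lay above the control range, and the log2 ratio was 0.56, with 1.09 in female cells and 0.03 in male cells. These ratios mix cells of both Atf3 ranges, the upper one holding 30 of 41 cells at day 3 and 12 of 33 at day 7. In the upper range Jun had medians of 394 CPM at day 3 and 372 CPM at day 7. In the other SNT-side cells they were 54.5 and 93.8 CPM. The part of this mix in the ratios was not tested.

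Fosl2 was low and uneven from cell to cell. It ranged from 0 to 79.5 CPM with a median of 12.7 CPM on the SNT side of day 3, against 0 to 21.2 CPM with a median of 3.2 CPM. Above 10 CPM were 56.1% of the SNT-side cells (interval 39.7% to 71.5%) and 5.56% of the control-side cells (0.141% to 27.3%). At day 7 it ranged from 0 to 53.1 CPM (median 5.80) against 0 to 22.3 CPM (median 3.3). These ranges overlapped for most cells, with 5 of 33 SNT-side cells above the control side. The log2 ratio was 2.12 at day 3 and 0.91 at day 7, where it was 1.63 in female and 0.24 in male cells. As for Jun, these ratios mix both Atf3 ranges. Fosl2 had medians of 18.6 and 8.87 CPM in the upper range at days 3 and 7, and 4.37 and 3.83 CPM in the other SNT-side cells.

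Creb1 ranged from 5.20 to 61.5 CPM with a median of 29 CPM on the SNT side of day 3 and from 4.77 to 27.1 CPM with a median of 15.9 CPM on the control side. In 23 of 41 SNT-side cells it lay above the control range, although its log2 ratio of 0.87 was short of 2-fold. At day 7 it ranged from 3.5 to 62.6 CPM (median 18.4) against 3.7 to 35.8 CPM (median 12.6), with 4 of 33 cells above and a log2 ratio of 0.52. Jund ranged from 1.52 to 74.1 CPM (median 19.6) against 6.38 to 39.3 CPM (median 22.3) at day 3, a log2 ratio of -0.01. At day 7 it ranged from 3.2 to 56.8 CPM (median 20.4) against 1.39 to 30.4 CPM (median 11.8) and 10 of 33 cells above the control range, a log2 ratio of 0.73.

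Atf2 varied least across cells, relative to its mean, of the 8 members on each side and day. It ranged from 33.1 to 135 CPM with a median of 68.6 CPM on the SNT side of day 3 and from 36.1 to 144 CPM with a median of 92.5 CPM on the control side, and every kept cell of both days was above 10 CPM. At day 7 it ranged from 28.8 to 143 CPM (median 62.5) against 49.8 to 107 CPM (median 74.3). No day-3 cell on the SNT side lay above the control range, and the log2 ratios were -0.25 and -0.14. Maff had reads in 14 of 41 SNT-side and 3 of 18 control-side cells at day 3 and in 7 of 33 and 1 of 14 at day 7, with a highest value of 15.3 CPM in 1 SNT-side cell of day 7, too few reads for a ratio.

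**Figure D3:**
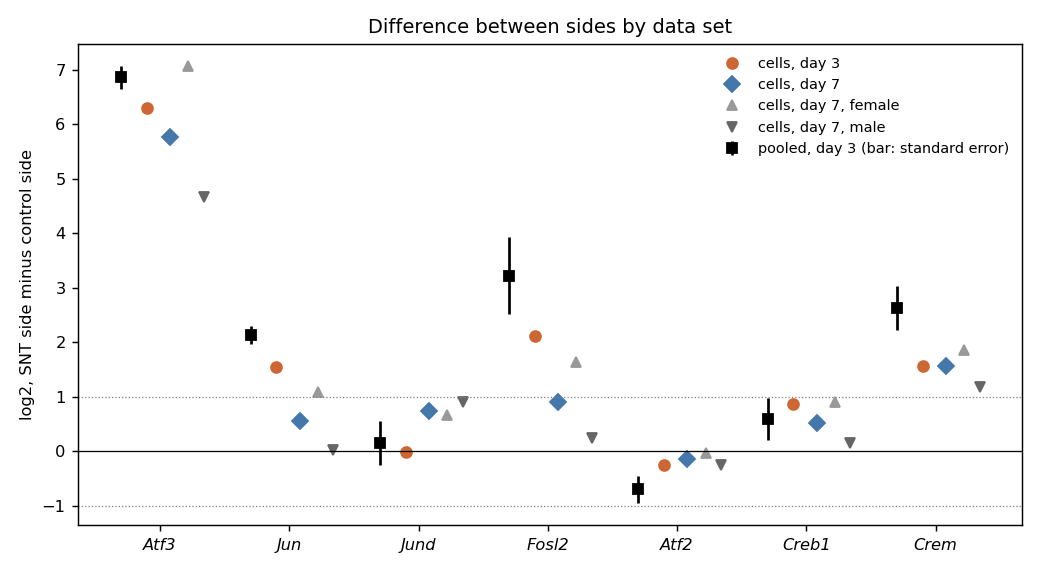
The vertical axis is the log2 difference, SNT side minus control side, and the horizontal axis the 7 members with enough reads; squares are the edgeR estimates over pooled libraries with their standard errors, and the other symbols are ratios of mean CPM + 1 over cells, without a test. Atf3 and Crem stay above 1 (dotted line) in every data set, Jun and Fosl2 fall below it over all day-7 cells, and Jund and Atf2 stay between -1 and 1.

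The members were next read together in the same cells, with a gene called above range where it exceeded every kept control-side cell of that day. At day 3, Crem was at 30.1 to 109 CPM in the 30 SNT-side cells of the upper Atf3 range and at 1.70 to 21.1 CPM in the other 11, so the ranges did not meet. It was above the control range in 26 of the 30 cells and in 0 of the 11. At day 7, Crem was above the control range in 12 of 12 cells with high Atf3, at 26.8 to 101 CPM, and in 3 of the other 21, at 4.98 to 43 CPM. These are descriptions of the cells, which come from unnamed animals and share their libraries across genes. How many of all genes separate the cells in this way was not counted, for Crem or for the members below.

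Jun was above the control range in 16 of 30 cells with high Atf3 and in 0 of 11 others at day 3, at 143 to 817 CPM and 9.86 to 194 CPM. At day 7 it was above in 5 of 12, at 267 to 517 CPM, and in 0 of 21, at 1.20 to 250 CPM. No cell on either day had Jun above the control range without Atf3. Fosl2 was above in 14 of 30 and 1 of 11 cells at day 3 and in 4 of 12 and 1 of 21 at day 7. Among the cells with high Atf3, Fosl2 ranged widely, from 0.942 to 79.5 CPM at day 3 (median 18.6). At day 7 it ranged from 1.17 to 51.8 CPM (median 8.87). The highest control-side cell for Fosl2 was at 21.2 CPM at day 3 and 22.3 CPM at day 7. The control-side upper quartiles were only 5.37 and 7.77 CPM, so cells not above range could still exceed most control-side cells.

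Creb1 was above in 22 of 30 and 1 of 11 cells at day 3 and in 4 of 12 and 0 of 21 at day 7. Jund was above in 3 of 30 and 1 of 11 at day 3 and in 6 of 12 and 4 of 21 at day 7. Atf2 was above in no cell at day 3 and, at day 7, in 0 of 12 cells with high Atf3 and 3 of the 21 others. Taking Atf3, Jun, Fosl2 and Crem at once, 8 of 41 day-3 cells were above range for all 4 genes, 14 for 3 genes and 10 for none. At day 7, 1 of 33 cells was above range for all 4 and 18 for none.

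**Figure D4:**
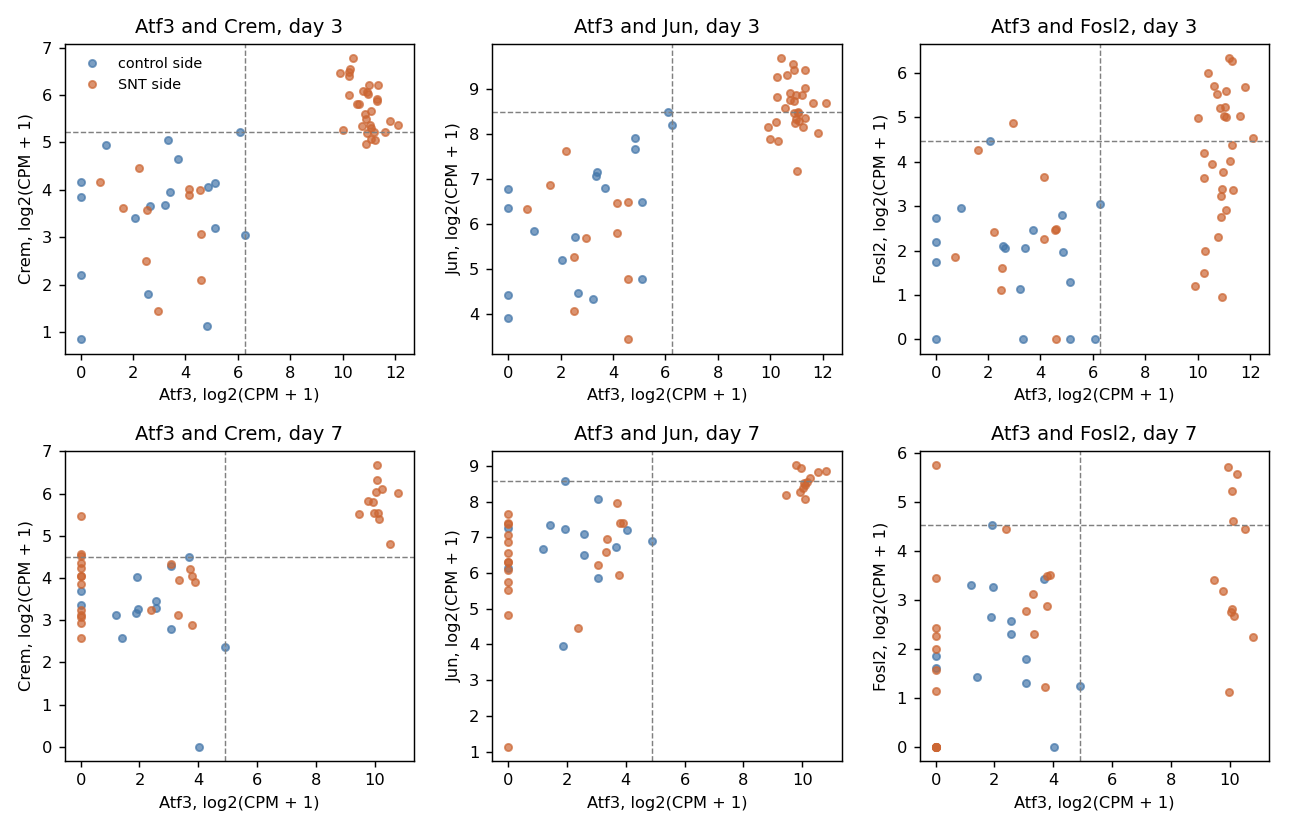
Each point is 1 kept neuron, with Atf3 on the horizontal axis and Crem, Jun or Fosl2 on the vertical axis, both as log2(CPM + 1), for day 3 (top) and day 7 (bottom); dashed lines mark the highest control-side cell. Crem is above its line in 26 of 30 day-3 and 12 of 12 day-7 cells right of the Atf3 line, Jun in 16 and 5, and Fosl2 in 14 and 4.

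Within the upper Atf3 range, the level of Atf3 did not order the other members in one way. Over the 30 such cells of day 3 the Spearman correlation with Atf3 was 0.50 for Atf2, 0.42 for Creb1, 0.34 for Fosl2, -0.01 for Jun and -0.44 for Crem. Over the 12 such cells of day 7 it was 0.37, 0.31, -0.05, 0.23 and 0.00 in the same order. Thus Crem, which was above range together with Atf3, had no positive correlation with it inside that range. With all outlier cells included, 34 SNT-side cells were above the highest control-side cell, and over these the values for Atf2 and Crem were 0.18 and 0.01, so both rest on the choice of cells.

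Over the 21 pairs of the 7 members, correlations in the 30 day-3 cells ran from -0.55 (Jund with Crem) to 0.62 (Atf2 with Creb1), with a median of 0.11; with outlier cells included the latter was 0.37. The median lay between -0.15 and 0.23 in the other 5 sets of cells, and 3 pairs at most passed 0.5 in size with one sign in any set. In the 18 control-side cells of day 3, Jun correlated at 0.63 with Atf3 and at -0.76 with Atf2, the latter -0.49 with outlier cells included; in the 14 control-side cells of day 7 these values were -0.01 and -0.33. Jun also correlated at -0.69 with the total count over these 18 cells, and at -0.41 over the 14. No p-value is given, since cells of a group share animals and the depth of a cell enters each of its values.

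Subtype markers ran along with some members inside the upper Atf3 range of day 3. Fosl2 correlated at 0.70 with P2rx3, an ATP-gated channel of NP neurons, and at -0.73 with Nefh, the heavy neurofilament of LM neurons. Atf3 gave 0.47 and -0.52 with the same genes, and Crem -0.36 and 0.14. In the 12 cells of day 7, Fosl2 gave -0.19 and 0.06. Such values were not confined to the upper Atf3 range. In the 18 control-side cells of day 3, Nefh gave 0.73 with Jun, -0.73 with Jund and -0.75 with Atf2. With outlier cells included these were 0.38, -0.59 and -0.52. Over the 14 control-side cells of day 7 they were 0.43, 0.01 and -0.38. In the 21 day-7 SNT-side cells with Atf3 within the control range, Atf3 gave -0.72 with P2rx3 and 0.59 with Nefh. Summed NP markers had a median of 1230 CPM in the day-3 and 76.2 CPM in the day-7 SNT-side cells, and summed LM markers 214 and 3070 CPM, so the markers differed between the cells of the 2 days, and the part of subtype in the members' values was not tested.

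The genes whose pattern over all 59 kept day-3 cells was most like that of Atf3, among genes averaging 10 CPM or more, were Flrt3 and Itga7 (Spearman 0.86 each), Cttn and Sox11 (0.85 each) and Bach1 (0.84). Over the 47 day-7 cells these were 0.54, 0.65, 0.66, 0.69 and 0.47. Itga7 is an integrin subunit, Cttn an actin-binding protein, Sox11 a transcription factor, and Bach1 a leucine zipper factor that pairs with small MAF proteins. Sox11 was also nearest to Creb1 (0.77 at day 3 and 0.40 at day 7). It was like Fosl2 too (0.71 and 0.35), after Srrm4 (0.74 and 0.18) and Itga7 (0.73 and 0.39).

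Crem was most like A830010M20Rik, Smim3 and Nsg1 (0.84 each at day 3, and 0.60, 0.50 and 0.54 at day 7). Jun was most like Scpep1 (0.86 and 0.73), Nsg1 (0.83 and 0.54) and Prosc (0.82 and 0.03). After Sox11, Creb1 was most like Eif4g2 (0.74 and 0.28) and Sbno2 (0.73 and 0.33). Atf2 was most like Gpd1l (0.80 and 0.46), Sri (0.80 and 0.44) and Mal2 (0.79 and 0.30). Jund was most like Ptov1 (0.74 and 0.45), Eif2b5 (0.64 and 0.18) and Mir6236 (0.62 and 0.09). All cells of both sides enter these values, so a gene that differs between the sides as the member does will score high.

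No other AP-1 gene was called higher in the pools. Of 8 listed partners 4 were tested, 0 rose and 1 fell, with a median log2 difference of -0.22 against 0.02 over all genes. Of all genes tested 15.9% were called in either direction. The one that fell was Fos, at 31.1 ± 1.71 CPM on the SNT side against 89.0 ± 17.3 CPM on the control side (log2 difference -1.37, standard error 0.24, edgeR adjusted p = 2.7e-05). It is one of the dissociation genes above. Over the day-3 cells Fos did not differ in that way, at means of 38.5 and 37.4 CPM, and at day 7 the means were 14.7 and 35.1 CPM. Junb was at 26.5 against 46.2 CPM in the pools (log2 difference -0.64, edgeR adjusted p = 0.11).

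Among 16 relatives of ATF and CREB, 14 were tested, of which 1 rose and 2 fell (median 0.11), a share near the 15.9% of all genes called in either direction. Atf5 rose by 1.07 on the log2 scale (standard error 0.38, edgeR adjusted p = 0.032), from 13.8 to 26.2 CPM. Over cells its log2 ratios were 0.67 at day 3 and 0.55 at day 7, short of 2-fold. Crebl2 and Crebzf were lower on the SNT side, at log2 differences of -2.06 and -1.46 (edgeR adjusted p = 0.0099 and 0.036). Crebl2 held 5, 28 and 7 control-side reads against 10, 5 and 3, so 1 library held most of those on the control side. Over cells the log2 ratios were -1.11 and -0.03 for Crebl2 and -1.24 and 0.42 for Crebzf, at days 3 and 7. The libraries of Crebzf overlapped, and it is named outside the fixed rule to account for the count. Atf4, the effector of the integrated stress response, read 92.9 and 80.1 CPM and was not called. Its means over the day-3 cells were 163 and 93.5 CPM (log2 ratio 0.80), and its day-7 log2 ratio was 0.12.

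Among the MAF and CNC genes, the potential partners of Maff, Bach1 and Mafk rose in the pools and Nfe2l3 fell. Bach1 was at 46.1 ± 9.03 CPM against 10.6 ± 3.66 CPM (log2 difference 2.30, standard error 0.36, edgeR adjusted p = 3.3e-06) and was also past 2-fold in the cells, with log2 ratios of 2.57 at day 3 and 2.14 at day 7. Mafk, a small MAF gene like Maff, was at 11 against 2.57 CPM (log2 difference 2.31, edgeR adjusted p = 0.016), from 0, 2 and 3 control-side reads. Nfe2l3 was lower, at 2.11 against 16.3 CPM (log2 difference -2.63, edgeR adjusted p = 0.0034).

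Of 9 CEBP and PAR zipper genes 5 were tested and only Nfil3, a repressor that can bind CRE-like sites, rose. Of all genes 8.83% were called higher. No gene of the list fell (median -0.37). Nfil3 was at 35 against 1.59 CPM (log2 difference 4.30, standard error 0.59, edgeR adjusted p = 2.3e-07). Its control-side libraries held 0, 4 and 0 reads, so the size of this difference rests on those 4 reads. Over cells Nfil3 had log2 ratios of 2.14 at day 3 and 0.80 at day 7, the latter short of 2-fold. The kinases upstream of Jun were not called. Of 12 JNK pathway genes, all tested, 1 rose, the scaffold Mapk8ip1 (log2 difference 1.02, edgeR adjusted p = 0.00065), near the 8.83% of all genes; none fell and the median was -0.06. Over cells Mapk8ip1 had log2 ratios of 0.45 at day 3 and -0.10 at day 7. Of 12 regulators of CREB, all tested, none rose and 1 fell, the protein kinase A catalytic subunit Prkacb, at 143 against 340 CPM (log2 difference -1.09, edgeR adjusted p = 2.2e-06; median 0.06). The 1 call is below the all-gene share of 15.9%, and over cells Prkacb had log2 ratios of -0.36 and -0.61, short of 2-fold.

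Of the 12 genes often studied with Atf3 and Jun after nerve injury, all but Cd44 were called in the same direction. In the pools 11 rose, against 8.83% of all genes, none fell and the median log2 difference was 3.72 against 0.02 over all genes. This list is of genes known to respond to axotomy and was set with these data known. Gal, Npy and Sprr1a had the largest differences, at 9.10, 8.19 and 7.98 (edgeR adjusted p = 1e-31, 1.5e-23 and 8.3e-27), followed by Stmn4 at 5.08 (6.3e-15). Cd44 was at 167 against 362 CPM (log2 difference -0.97), short of 2-fold, and over cells it was the other way, at means of 474 against 259 CPM at day 3 and a log2 ratio of 0.30 at day 7. Over cells 11 of 12 were past 2-fold at day 3 and 9 of 12 at day 7, with medians of 3.3 and 2.95. Of all genes 13.2% and 9.86% were past 2-fold in either direction at these days.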

How the data were processed

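Single DRG neurons and pools of neurons were profiled by Smart-seq2, which has no molecular identifiers. The submitters' processing notes name CASAVA 1.8.2, Bowtie2, RSEM and mm9. The deposited values are expected counts of the authors, not the TPM the files are called: they are mostly whole numbers (60.7% to 93.6% of values above 0) and their totals differ between libraries. They were rounded for the count tests and divided by the column sum for CPM. The authors' table without 11 outlier day-3 cells (7 SNT-side and 4 control-side) gave the kept cells, and their full table the 6 pooled libraries. The labels give 106 neurons per pool, and the study's methods another number. Pooled sides were compared with edgeR 4.0.16 in R 4.3.3 (quasi-likelihood test, TMM, genes averaging 1 CPM or more, called at 2-fold or more with p under 0.05 after Benjamini-Hochberg adjustment). On simulated counts with log2 changes of 2 and 3 in this comparison, 80.6% and 91% of changed genes among 13479 were recovered, and 0.0753% of the others were called. DESeq2 1.42.0 and limma 3.58.1 were alternatives. Cells were described with Python 3.11.15, pandas 2.3.3 and scipy 1.17.1, with a pseudocount of 1 CPM and no doublet call, the neurons having been picked one by one. The 8 genes, the gene lists and the rules were chosen with earlier results of these data known. Genes were named by rule: the 8 members, from each list at most 4 that passed without overlap of the libraries at 10 CPM or more, and the 5 (Atf3) or 3 genes with the highest Spearman correlation; Crebzf, Junb, Atf4 and Cd44 were named beyond it after their values were seen, and the counts over the MAF and CNC list are not reported here. Intervals and limits from 3 counts cover counting error only. RefSeq promoter windows were found for 7 of the 8 genes.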

Additional observations from a re-analysis of the deposited data

Results flagged for a closer look

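The 7 SNT-side cells of day 3 that the authors removed as outliers entered only the alternatives that include outlier cells, and in some of them members were above the highest kept control-side cell. This was so for Atf3 in 4 cells, for Jun in 3, for Jund in 4, for Fosl2 in 1, for Creb1 in 3 and for Crem in 1. Atf3 in these 7 cells was at 12 to 255 CPM with a median of 82.2 CPM, which places some of them in the gap left by the kept cells between 23 and 951 CPM. Jun reached 2170 CPM in them, above all 41 kept SNT-side cells of that day. The 4 removed control-side cells had Atf3 at 17.2 to 71.4 CPM and Jun at 0 to 381 CPM.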

How the results depend on the processing

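The count of 4 members called higher in the pools was 4 with RLE factors, totals alone, every gene with a count, DESeq2, limma, thinning of the libraries to the shallowest total (chosen after seeing the data) and each library left out, and 3 at a minimum of 10 CPM, where Fosl2 was not tested. Leaving out 1 library at a time gave log2 differences of 6.57 to 7.44 for Atf3, 2.06 to 2.22 for Jun, 2.63 to 7.35 for Fosl2, 2.26 to 3.4 for Crem, -0.99 to -0.23 for Atf2, 0.27 to 0.82 for Creb1 and 0.05 to 0.29 for Jund. Jund turned to -0.00 with totals alone and to -0.01 with limma. Scaling by totals alone moved the median over all genes from 0.02 to -0.14 and the share of calls that were higher from 55.4% to 43.6%. Calls over all genes ran from 1649 to 2243, with 2154 as reported. With the library number as a replicate block all 7 values kept their side of the threshold, the count of members was 4 and 2008 genes were called; same-numbered libraries deviated together with r of 0.0593, -0.0164 and -0.00689, so the numbers do not pair them. In the day-7 cells the count of 2 members past 2-fold was 4 with cells thinned to 200000 counts, where Fosl2 was at 1.24 and Jund at 1.06, and 4 in female cells only. The day-3 count was 4 under every alternative. Of the shares of cells, 26 moved at the level of 1 CPM or by thinning and 38 did not, and 15 alternative co-expression values moved, all with outlier cells included, and 300 did not. Fosl2 rests on 4 control-side reads in the pools and Maff was not tested there.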
